A study of Mus musculus with 17 samples.

Results

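The genes described here are 5 homeobox genes of the Hoxa cluster (Hoxa3, Hoxa5, Hoxa7, Hoxa9 and Hoxa10) and 3 genes of their DNA-binding partners (Meis1, Pbx2 and Pbx3). They were taken as the probe sets that the platform annotation gives to exactly 1 of these 8 symbols, which were 14 probe sets, and each gene was represented by its probe set of highest mean over the arrays. The 8 genes are 8 of 17097 genes on the array. Of the 8, 6 were among the 11625 genes whose highest group mean lay above the median of all values (3.83 on the log2 scale), and only those were tested. Hoxa3 and Hoxa10 lay below it in every group and were not tested. Hoxa5, Hoxa7 and Hoxa9 passed through the healthy groups only, so a difference between healthy and leukemic cells was built into their presence among the tested genes.

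The series holds 17 Affymetrix arrays of mouse cells in 5 groups, all with the strain label C57/Bl6 and the genotype label wildtype. Leukemic cells came from the spleens of recipient mice aged 4 to 8 weeks that had been irradiated with 4.5 to 6 Gy and given donor cells transformed with Myc, a growth-promoting transcription factor, and Bcl2, which blocks cell death. The cells of origin were LSK cells (a marrow fraction rich in stem cells that lacks lineage markers and carries Sca1 and c-kit, 3 arrays), DN2 cells (early T-cell progenitors of the thymus, 5 arrays) or granulocyte-macrophage progenitors (GMP, 5 arrays). Healthy DN2 cells of the thymus and healthy GMP of the marrow, with no transgene and no transplantation on their labels, gave 2 arrays each. There was no array of healthy LSK cells, so the LSK-labelled leukemia has no cell of origin to be set against. According to the labels the leukemic splenocytes were sorted as positive for the myeloid surface proteins CD11b and Gr1 and negative for CD3, CD4 and CD8. No source used here gives the vector or promoter of the transgenes. Whether the replicates came from different animals is not on the labels, so p-values cover only the spread between these samples, which may be technical.

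Hox proteins are transcription factors that tell cells their place along the body axis, and in blood the genes of the Hoxa cluster are active in stem cells and early progenitors and are switched off as cells mature. The cluster is kept active by the histone methyltransferase Kmt2a (MLL) with its partner menin and is silenced by Polycomb complexes. Meis and Pbx proteins belong to another class of homeodomain proteins, called TALE, which bind DNA side by side with Hox proteins. High Hoxa9 and Meis1 together mark a large class of acute myeloid leukemias, in particular those with rearranged Kmt2a, and forced expression of the pair transforms marrow progenitors.

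The sequences in front of the transcription start sites are shown for the 4 genes whose level fell in both leukemias with a healthy counterpart. RefSeq's promoter table of the build GRCm38.p6 matched 7 of the 8 genes, with no entry for Pbx3. The 250 bases upstream of the start are given 5′ to 3′ on the gene's own strand, and capitals mark CG dinucleotides, the sites of DNA methylation in mammals. They lie at chr6:52204588-52204837 (minus strand) for Hoxa5, chr6:52218574-52218823 (minus strand) for Hoxa7, chr6:52227371-52227620 (minus strand) for Hoxa9 and chr11:19018970-19019219 (minus strand) for Meis1.
Hoxa5: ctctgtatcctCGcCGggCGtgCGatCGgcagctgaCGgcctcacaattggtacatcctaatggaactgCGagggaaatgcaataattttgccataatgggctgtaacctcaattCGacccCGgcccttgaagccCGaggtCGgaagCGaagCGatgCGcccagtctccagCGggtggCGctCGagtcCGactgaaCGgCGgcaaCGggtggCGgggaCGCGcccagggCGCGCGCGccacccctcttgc
Hoxa7: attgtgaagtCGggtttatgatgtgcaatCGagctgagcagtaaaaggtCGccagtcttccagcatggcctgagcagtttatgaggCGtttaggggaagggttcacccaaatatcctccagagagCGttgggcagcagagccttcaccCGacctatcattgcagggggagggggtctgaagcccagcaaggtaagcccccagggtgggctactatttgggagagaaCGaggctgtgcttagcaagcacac
Hoxa9: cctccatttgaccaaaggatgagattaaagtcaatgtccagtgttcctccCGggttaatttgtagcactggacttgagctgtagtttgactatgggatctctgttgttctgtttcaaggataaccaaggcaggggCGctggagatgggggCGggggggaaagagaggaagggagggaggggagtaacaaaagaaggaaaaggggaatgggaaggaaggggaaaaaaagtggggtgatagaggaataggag
Meis1: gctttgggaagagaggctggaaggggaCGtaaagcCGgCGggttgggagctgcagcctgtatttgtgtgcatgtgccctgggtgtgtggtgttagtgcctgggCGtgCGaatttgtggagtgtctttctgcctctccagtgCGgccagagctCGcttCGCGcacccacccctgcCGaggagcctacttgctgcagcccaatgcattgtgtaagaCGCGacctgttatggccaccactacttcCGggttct

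The 4 windows were unlike each other in composition. The Hoxa5 window held 28 CG dinucleotides and 63.6% G and C, and the Meis1 window held 13 and 59.6%. Fewer CG dinucleotides stood in the Hoxa7 window (7, with 54.8% G and C) and in the Hoxa9 window (3, with 49.6%). Over the 32851 promoter windows of the table the medians were 6 CG dinucleotides and 52.4%. On both strands the windows were searched for CACGTG (the E-box bound by Myc, present in 6.02% of all windows), TGACAG (a Meis core, in 15.86%) and TGATNNAT (a Pbx-Hox core, in 7.68%). None of the 4 windows held any of these letters, which says only that they are not in these 250 bases. Among the other members' windows the single match was TGACAG in that of Hoxa3. DNA methylation was not measured.

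Some arrays went against their labels. The DN2-labelled leukemia arrays had a mean of 10.16 to 10.64 over 6 T-cell genes, against 4.12 to 5.14 in the other leukemia arrays, and 3 of the 5 (arrays 2, 4 and 5) had Itgam, the gene of CD11b, at only 3.24 to 3.47. Arrays 1 and 3 of that group had Itgam at 7.17 and 7.38. LSK-labelled arrays 2 and 3 had Mycn, the Myc family gene that stood at 11.58 or more in the other 11 leukemia arrays, at only 4.91 and 4.22, where the healthy arrays had 3.96 to 4.58. At its chosen probe set, Bcl2 in these 2 arrays was 6.75 and 5.27, against 9.25 or more in the other 11 leukemia arrays and 5.89 to 6.99 in healthy arrays. At another Bcl2 probe set the order was turned, with 9.32 and 8.48 in these 2 arrays, 3.61 to 6.98 in the other 11 leukemia arrays and 8.62 to 9.84 in healthy arrays, so these 2 arrays lay nearer the healthy arrays at both. Myc, which the labels name beside Bcl2, was lower in leukemia at its chosen probe set, with 5.48 to 6.49 in all 13 leukemia arrays and 10.10 to 10.65 in healthy arrays. The labels say no more than Myc of the gene that was introduced. Results for these groups are therefore given for arrays with that label. In places they are also given without LSK-labelled arrays 2 and 3, or without DN2-labelled arrays 1 and 3, which had the higher Itgam. DN2-labelled arrays 2, 4 and 5 were not left out as a set of their own. Array medians ran from 3.80 to 3.86, no 2 arrays held identical values, and the number of arrays limits the precision. Values near the median are background signal, so a difference against a group at that level understates the change.

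Hoxa5, Hoxa7 and Hoxa9, the 3 Hoxa members that were tested, were expressed in healthy DN2 cells and healthy GMP. They were at or close to background in all 13 leukemia arrays. Hoxa5, a gene of the middle of the cluster, measured 5.41 and 5.56 in healthy DN2 and 5.24 and 4.61 in healthy GMP. Its values were 3.07, 3.29 and 2.92 in LSK-labelled leukemia, 3.24, 3.00, 3.09, 3.18 and 3.04 in DN2-labelled leukemia, and 3.16, 3.24, 3.06, 2.91 and 3.09 in GMP-labelled leukemia. No leukemia array came near a healthy array. Hoxa5 was lower by -2.38 ± 0.17 (log2 difference ± SE, n = 5 and 2, adjusted p = 8.59e-08, limma) in DN2-labelled leukemia than in healthy DN2. The difference of GMP-labelled leukemia from healthy GMP was -1.83 ± 0.17 (adjusted p = 3.04e-06).

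Hoxa7, another gene of the middle of the cluster, showed the same split. It measured 5.51 and 5.83 in healthy DN2 and 5.32 and 5.55 in healthy GMP. The LSK-labelled arrays had 3.20, 3.41 and 3.16, the DN2-labelled arrays 3.10, 3.08, 3.37, 3.33 and 3.06, and the GMP-labelled arrays 3.41, 3.39, 3.32, 3.14 and 3.12. All leukemia values lay below the median of the array, and all healthy values well above it. In the DN2 comparison Hoxa7 fell by 2.48 ± 0.16 (SE, adjusted p = 1.82e-08). It fell by 2.16 ± 0.16 from healthy GMP to GMP-labelled leukemia (adjusted p = 2.13e-07).

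Hoxa9, the cluster gene best known in myeloid leukemia, showed the same separation. Healthy GMP had 5.15 and 4.95 and healthy DN2 had 4.30 and 4.50. In leukemia the values were 3.79, 3.88 and 3.51 (LSK-labelled), 3.71, 3.92, 3.37, 3.43 and 3.87 (DN2-labelled), and 3.64, 3.87, 3.73, 3.94 and 3.80 (GMP-labelled). The highest leukemia array, at 3.94, was still below the lowest healthy array, at 4.30. Hoxa9 fell by 1.25 ± 0.18 from healthy GMP to GMP-labelled leukemia (SE, adjusted p = 1.71e-04) and fell by 0.74 ± 0.18 from healthy DN2 to DN2-labelled leukemia (adjusted p = 0.00694). Without healthy DN2 array 2 the latter difference was -0.64 and did not pass (adjusted p = 0.115).

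Every healthy array lay above every leukemia array for these 3 of the 8 genes, and the same held for 684 of the 17097 genes on the array (4%) and for 670 of the 11625 tested genes (5.76%). Leaving out arrays cannot undo such a separation, and these 3 genes have a single probe set each. Of the alternatives, only quantile normalization and median centring of each array could therefore have undone it. Over all 24 alternatives these 3 genes stayed separated, and in 4 alternatives another member joined them. That was Meis1 without healthy DN2 array 1 or without the LSK-labelled arrays, the dim Hoxa10 without the DN2-labelled leukemia arrays, and the dim Hoxa3 with the probe set of largest variance. The means of the 3 leukemia groups ran from 3.09 to 3.11 for Hoxa5, from 3.19 to 3.28 for Hoxa7 and from 3.66 to 3.80 for Hoxa9. None of the 3 genes passed the test in a comparison between leukemias, with adjusted p from 0.468 to 0.996. All these leukemia values are at or close to background, where levels have no order. In bulk RNA, fewer cells of a type and less RNA per cell cannot be told apart.

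**Figure D1:**
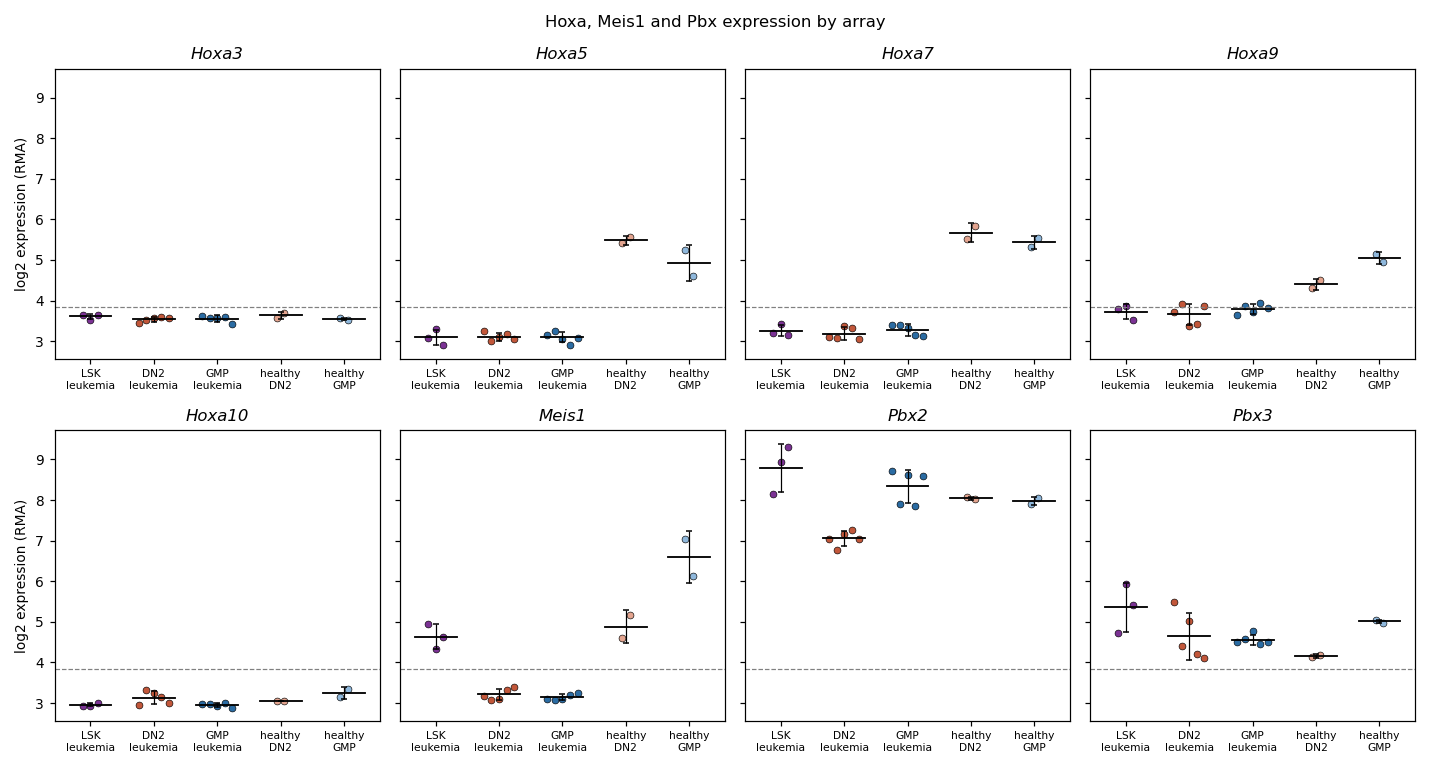
Log2 expression of the 8 genes on the chosen probe set in each of the 17 arrays (points), with the mean (horizontal line) and SD (bars) of each of the 5 groups and the median of all values, 3.83, as a dashed line. Hoxa5, Hoxa7 and Hoxa9 stand above the leukemia arrays in all 4 healthy arrays, Meis1 is also raised in the 3 LSK-labelled arrays, Pbx2 is high in every group and lowest in the DN2-labelled leukemia, and Hoxa3 and Hoxa10 stay below the line.

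Hoxa3 and Hoxa10 gave no level above background in any group. Hoxa3, a gene of the cluster's anterior end, ran from 3.42 to 3.69 over the 17 arrays at its chosen probe set. Hoxa10, a posterior gene linked to myeloid and megakaryocyte progenitors, ran from 2.89 to 3.35. Of the 4 Hoxa3 probe sets, 1 had all healthy arrays (3.47 to 3.54) above all leukemia arrays (2.99 to 3.31), but below the array median, and at the other 3 the ranges overlapped. Neither gene was tested, and at this signal a change in either could be missed.

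The remaining Hoxa genes on the array were Hoxa2, Hoxa4, Hoxa11 and Hoxa13. Hoxa4 had healthy arrays (3.18 to 3.46) above leukemia arrays (2.75 to 3.08), again all below the median. For Hoxa2, Hoxa11 and Hoxa13 the ranges overlapped. Hoxa11 was the only tested gene of the 4 and did not pass in either comparison of leukemia with healthy cells (differences of 0.04 ± 0.14 in DN2 and -0.31 ± 0.14 in GMP, SE). Separation at a usable signal was thus seen at Hoxa5, Hoxa7 and Hoxa9, as drawn in the plot of ranges over Hoxa probe sets.

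**Figure D2:**
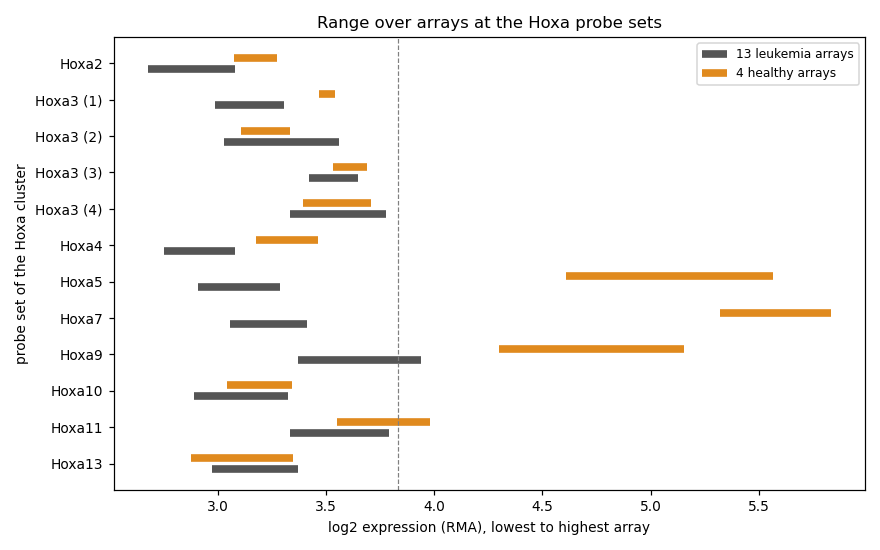
Lowest to highest log2 expression over the 13 leukemia arrays (grey bars) and the 4 healthy arrays (orange bars) at each probe set of the Hoxa genes on the array, ordered by position in the cluster, with numbers in parentheses for the 4 probe sets of Hoxa3 and the median of all values as a dashed line. At Hoxa5, Hoxa7 and Hoxa9 the orange bars lie above the line and clear of the grey bars. At the other genes both bars lie below the line or close to it.

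Meis1, the TALE partner of Hoxa9, was highest in healthy GMP, lower in healthy DN2 and LSK-labelled leukemia, and at background in the other leukemias. Its values were 7.05 and 6.14 in healthy GMP and 4.59 and 5.17 in healthy DN2. DN2-labelled leukemia had 3.18, 3.09, 3.09, 3.33 and 3.39 and GMP-labelled leukemia had 3.11, 3.08, 3.09, 3.21 and 3.24. These groups did not overlap with the healthy arrays. Meis1 fell by 3.45 ± 0.23 (SE, adjusted p = 8.76e-08) from healthy GMP to GMP-labelled leukemia, and fell by 1.67 ± 0.23 (adjusted p = 8.74e-05) from healthy DN2 to DN2-labelled leukemia. The difference between these effects was 1.78 ± 0.32 (interaction, adjusted p = 0.00194), and it passed in all 24 alternatives. Both leukemias ended at the same background level, 3.21 ± 0.14 (SD, n = 5) and 3.15 ± 0.07 (SD, n = 5), while healthy DN2 differed from healthy GMP by -1.71 ± 0.27 (SE, adjusted p = 6.62e-04).

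LSK-labelled leukemia was the exception, with Meis1 at 4.95, 4.33 and 4.63. Each of the 3 arrays exceeded each of the 10 other leukemia arrays, and array 1 and array 3 also exceeded healthy DN2 array 1. Meis1 was higher in LSK-labelled than in GMP-labelled leukemia by 1.49 ± 0.20 (SE, n = 3 and 5, adjusted p = 1.47e-04) and than in DN2-labelled leukemia by 1.42 ± 0.20 (adjusted p = 5.48e-05). With LSK-labelled array 1 alone, whose Mycn was high, the differences were 1.81 ± 0.29 (adjusted p = 0.00138) and 1.74 ± 0.29 (adjusted p = 7.72e-04), the lone array being assumed to vary like the others. In the same arrays Hoxa5, Hoxa7 and Hoxa9, with a single probe set each, were at or close to background. A second Meis1 probe set was dim throughout (3.37 to 3.95) and was not tested.

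Pbx2, a broadly expressed Pbx protein, was well above background in every group and lowest in DN2-labelled leukemia. The DN2-labelled arrays had 7.05, 6.77, 7.16, 7.27 and 7.03, and every other array was higher. GMP-labelled leukemia had 8.72, 7.91, 8.61, 7.86 and 8.58 and LSK-labelled leukemia 8.14, 8.94 and 9.30. Healthy DN2 measured 8.07 and 8.02 and healthy GMP 7.91 and 8.06. Pbx2 was lower in DN2-labelled than in GMP-labelled leukemia by -1.28 ± 0.22 (SE, n = 5 and 5, adjusted p = 2.98e-04), and LSK-labelled exceeded DN2-labelled leukemia by 1.74 ± 0.25 (adjusted p = 7.74e-05). The latter was 1.09 ± 0.31 (adjusted p = 0.0218) with LSK-labelled array 1 alone. These comparisons share the DN2-labelled arrays.

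Against healthy DN2, Pbx2 fell by 0.99 ± 0.29 in DN2-labelled leukemia (SE, adjusted p = 0.0236). That call was lost without healthy DN2 array 1 (-0.96, adjusted p = 0.157), without healthy DN2 array 2 (-1.02, adjusted p = 0.133) and without DN2-labelled arrays 1 and 3 (-1.02, adjusted p = 0.0502). GMP-labelled leukemia differed from healthy GMP by 0.35 ± 0.29 (SE, adjusted p = 0.427), with overlapping arrays. The interaction of -1.34 ± 0.41 was close to the threshold (SE, adjusted p = 0.0463) and was lost in 17 of 24 alternatives. All 3 Pbx2 probe sets gave the same order among leukemias, with differences of DN2-labelled from GMP-labelled leukemia of -1.28, -1.28 and -1.27. Against healthy DN2 the other 2 probe sets gave -0.87 ± 0.34 (SE, adjusted p = 0.088) and -0.77 ± 0.36 (adjusted p = 0.152), which did not pass.

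**Figure D3:**
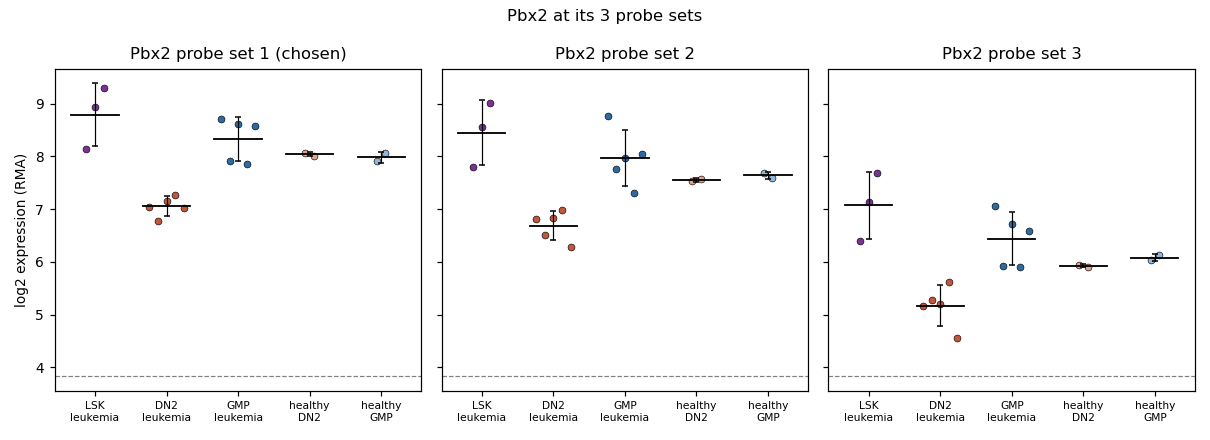
Log2 expression of Pbx2 at its 3 probe sets in each of the 17 arrays (points), with group mean (line) and SD (bars) and the median of all values as a dashed line. The DN2-labelled leukemia is lowest at each probe set, with group means of 7.06, 6.69 and 5.16.

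Pbx3, a Pbx protein that works with Hoxa9 and Meis1 in myeloid leukemia, was above background in every array and passed the test in no comparison. It measured 4.73, 5.93 and 5.42 in LSK-labelled leukemia and 5.04 and 4.98 in healthy GMP. DN2-labelled leukemia had 5.48, 4.40, 5.02, 4.20 and 4.10, and its SD of 0.59 was close to that of LSK-labelled leukemia, 0.60. The 2 high arrays there, 1 and 3, are those with high Itgam. GMP-labelled leukemia had 4.50, 4.58, 4.77, 4.45 and 4.51, and healthy DN2 had 4.13 and 4.19. All 5 GMP-labelled arrays were below both healthy GMP arrays, with a difference of -0.45 ± 0.34 (SE, adjusted p = 0.372).

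From healthy DN2 to DN2-labelled leukemia the difference was 0.48 ± 0.34 (SE, adjusted p = 0.36), with overlapping arrays. It was 0.08 ± 0.27 without DN2-labelled arrays 1 and 3. LSK-labelled leukemia exceeded GMP-labelled leukemia by 0.80 ± 0.30 (SE, adjusted p = 0.0601) and DN2-labelled leukemia by 0.72 ± 0.30 (adjusted p = 0.0589). Without LSK-labelled array 1 those differences were 1.11 (adjusted p = 0.0119) and 1.03 (adjusted p = 0.0116), and without DN2-labelled arrays 1 and 3 the latter was 1.12 ± 0.24 (adjusted p = 0.0022). With LSK-labelled array 1 alone they were 0.17 ± 0.40 and 0.09 ± 0.40. Over 6 monocyte and macrophage genes the mean was 7.84 to 10.24 in LSK-labelled leukemia, 3.80 to 6.93 in DN2-labelled leukemia, 6.05 to 6.80 in GMP-labelled leukemia, 6.03 to 6.05 in healthy GMP and 3.82 to 3.91 in healthy DN2. Their part in the Pbx3 values was not tested.

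Counted over the members, DN2-labelled leukemia had 5 of 6 tested genes lower than healthy DN2 and 0 higher, where 13.7% of all tested genes were called lower, 9.49% higher and 23.2% in all. The GMP comparison had 4 of 6 lower and 0 higher, against 13.1% lower, 8.09% higher and 21.2% in all. The median over the 6 tested members was -1.33 in DN2 and -1.54 in GMP, beside 0.01 and -0.12 over all tested genes. Because Hoxa5, Hoxa7 and Hoxa9 entered the test through their healthy values, these counts and medians are no independent support. With no filter on dim genes, 5 of 8 and 4 of 8 members were lower, against 9.13% and 8.62% of all 17097 genes. Without healthy DN2 array 2 the DN2 count was 3, since Hoxa9 and Pbx2 did not pass, while 1236 genes in all were called in place of 2695.

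**Figure D4:**
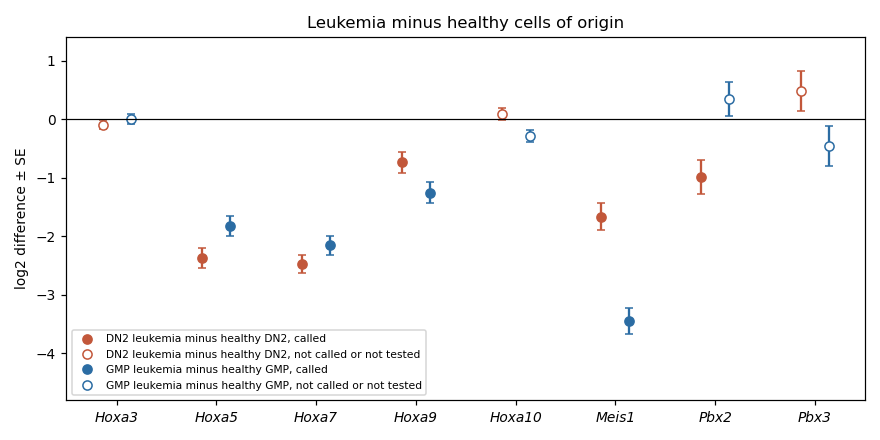
Log2 difference of each leukemia from its healthy cell of origin for the 8 genes, with SE bars, in red for DN2-labelled leukemia minus healthy DN2 and in blue for GMP-labelled leukemia minus healthy GMP. Filled points passed an adjusted p of 0.05 and open points did not pass or were not tested. Hoxa5, Hoxa7, Hoxa9 and Meis1 lie below 0 in both colours, and Pbx2 does so for DN2 alone.

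Between the healthy groups 1 of 6 members was called, against 11.2% of tested genes (5.4% lower in DN2), and that was Meis1, which was lower in DN2. Hoxa9 was lower in healthy DN2 than in healthy GMP by -0.65 ± 0.21 (SE, adjusted p = 0.0626) and Hoxa5 was higher by 0.56 ± 0.20 (adjusted p = 0.0958), neither of which passed. Hoxa7 differed by 0.24 ± 0.19 (adjusted p = 0.513) and Pbx2 by 0.06 ± 0.35 (adjusted p = 0.96). Pbx3 was -0.86 ± 0.41 (adjusted p = 0.222) and did not pass either. In order of mean level, Hoxa5 and Hoxa7 ran healthy DN2, healthy GMP and then the leukemias, while Hoxa9 and Meis1 began with healthy GMP.

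Of the comparisons between leukemias, DN2-labelled against GMP-labelled had 1 of 6 members called (Pbx2, lower), where 39.8% of tested genes were. LSK-labelled against GMP-labelled leukemia had 1 (Meis1, higher) against 26.7% in all and 10.3% higher, and LSK-labelled against DN2-labelled leukemia had 2 (Meis1 and Pbx2, both higher) against 47.4% in all and 19.1% higher. These counts of 1 or 2 of 6 are not far from the background. In the interaction 2 of 6 members were called (Meis1 and Pbx2), against 12.7%.

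The other Hox clusters gave few signals above background. Of 9 Hoxb genes 3 were tested, and Hoxb4, a stem-cell gene of that cluster, fell by 1.49 ± 0.38 (SE, adjusted p = 0.014) from healthy GMP (5.23 and 5.61) to GMP-labelled leukemia (3.69, 3.92, 4.39, 3.93 and 3.73). From healthy DN2 to DN2-labelled leukemia it was -0.33 ± 0.38 (adjusted p = 0.613), with overlapping arrays. LSK-labelled arrays had Hoxb4 at 4.24, 5.66 and 6.01, the highest being the arrays with low Mycn, and the difference from GMP-labelled leukemia was 1.37 ± 0.34 (adjusted p = 0.00782). Of 11 Hoxc and Hoxd genes 3 were tested and 0 passed in either comparison of leukemia with healthy cells, also at an unadjusted p of 0.05. No gene of these 3 clusters had all healthy arrays above all leukemia arrays.

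Of 11 other genes of the TALE class on the array, counting the Pbx-binding protein gene Pbxip1 among them, 7 were tested. None passed in DN2-labelled leukemia against healthy DN2, also at an unadjusted p of 0.05, and 1 rose in GMP-labelled leukemia against healthy GMP. That was Pbxip1, whose product binds Pbx and inhibits Hox-Pbx binding to DNA, at 1.77 ± 0.43 (SE, adjusted p = 0.00985). Between leukemias, 4 of the 7 were higher and 1 lower in DN2-labelled than in GMP-labelled leukemia, against 21% and 18.8% of tested genes. The repressors Tgif1 and Tgif2 were higher by 2.25 ± 0.56 and 1.74 ± 0.33 (SE), the Pbx partner Pknox1 was higher by 0.89 ± 0.19, and Pknox2 was lower by -1.12 ± 0.26.

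Genes of the Kmt2a complex and of transcription elongation, which keep Hoxa genes active, were mostly not called. Of 19 tested, 1 rose and 2 fell in DN2-labelled leukemia against healthy DN2, and 1 rose and 5 fell in GMP-labelled leukemia against healthy GMP, where 23.2% and 21.2% of all tested genes were called. Men1, which encodes menin, fell in both, with differences of -0.86 ± 0.22 (SE, adjusted p = 0.0116) and -1.10 ± 0.22 (adjusted p = 0.0031), and lay at 7.87 to 8.10 in healthy arrays against 6.24 to 7.52 in leukemia. Kat7, a histone acetyltransferase, was lower by -0.58 ± 0.15 in DN2-labelled leukemia. Its values were also lower in GMP-labelled leukemia (8.00 to 8.36) than in healthy GMP (8.72 and 8.84). Mllt6, a Kmt2a fusion partner, rose by 2.22 ± 0.47 in DN2. Mllt3, another fusion partner and elongation factor, fell by 1.37 ± 0.46 in GMP, and the elongation factor gene Ell rose there by 1.04 ± 0.17. Kmt2a itself is not analysed here.

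Polycomb genes, whose products silence Hox clusters, were mostly not called. In DN2-labelled leukemia 2 of 17 tested were higher and 4 lower than in healthy DN2, and in GMP-labelled leukemia 1 was higher and 4 lower than in healthy GMP, beside 23.2% and 21.2% of all tested genes called. Ezh2, the methyltransferase of Polycomb complex PRC2, fell in both, with differences of -1.61 ± 0.35 (SE, adjusted p = 0.00394) and -1.47 ± 0.35 (adjusted p = 0.00941). Its relative Ezh1 rose by 0.95 ± 0.27 in GMP. The chromobox gene Cbx7 rose by 3.74 ± 0.66 in DN2, where Cbx2 fell by 1.73 ± 0.20 and Cbx6 fell by 1.08 ± 0.26. In GMP, Cbx6 fell by 3.94 ± 0.26 and the polyhomeotic gene Phc1 fell by 2.94 ± 0.22. Between the leukemias 12 of 17 were higher and 0 lower in DN2-labelled than in GMP-labelled arrays, against 21% and 18.8% of all tested genes.

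Genes known to be bound or regulated by Hoxa9 and Meis1, or tied to them in leukemia, were more often lower than higher in the leukemias. Of 18 tested, 10 fell and 2 rose in DN2-labelled leukemia and 7 fell and 1 rose in GMP-labelled leukemia. Of all tested genes, 13.7% fell and 9.49% rose in DN2 and 13.1% fell and 8.09% rose in GMP. The median difference of the 18 was -1.92 and -0.93, beside 0.01 and -0.12 over all tested genes. The list was chosen with earlier results of these data known, and it shares Cd34 and Kit with the stem and progenitor markers. Cd34 entered the test through its healthy values only. These counts and medians are therefore no independent support for the Hoxa9 and Meis1 results. Cd34, a surface protein of progenitors, fell in DN2 and GMP with differences of -6.31 ± 0.18 (SE, adjusted p = 2.74e-12) and -7.14 ± 0.18 (adjusted p = 4.79e-12). The stem cell factor receptor gene Kit had -6.43 ± 0.88 and -4.86 ± 0.88. In DN2, Erg and Igf1r had -6.73 ± 0.75 and -3.54 ± 0.61, and in GMP Sox4 had -7.72 ± 0.58, all past the threshold. The change of each of these genes differed between the origins. Their interactions for DN2 minus GMP were -6.98 ± 1.07 (Erg), -3.41 ± 0.87 (Igf1r) and 6.04 ± 0.82 (Sox4, SE), all called. Id2, an inhibitor of differentiation factors, rose by 3.53 ± 0.35 in GMP. For Myb, Cd34, Kit and Cdk6 every healthy array was above every leukemia array, as for 5.76% of tested genes. For Id2 every healthy array was below every leukemia array, as for 2.44% of tested genes.

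Of 6 tested markers of stem and progenitor cells, 2 fell and 0 rose in DN2-labelled leukemia (Cd34 and Kit). In GMP-labelled leukemia 4 fell and 0 rose. Among all tested genes 13.7% fell in DN2 and 13.1% in GMP. Over the 7 such genes on the array the mean was 5.42 to 5.45 in healthy DN2 and 6.15 to 6.56 in healthy GMP, against 3.25 to 3.38, 3.39 to 4.39 and 3.45 to 4.34 in DN2-labelled, GMP-labelled and LSK-labelled leukemia. Cd34 was 2.51 to 3.39 over all leukemia arrays, below the array median. Markers of mature cells differed too. Over 7 neutrophil genes the mean was 13.15 to 13.79 in GMP-labelled leukemia against 7.86 to 8.02 in healthy GMP. There 6 of 7 were called higher, beside 8.09% of all tested genes. Over 7 NK-cell genes the mean was 9.38 to 11.58 in DN2-labelled leukemia against 5.40 to 5.42 in healthy DN2. There 5 of 7 were called higher, beside 9.49% of all tested genes. The part of these marker sets in the Hoxa and Meis1 results was not tested. GMP-labelled arrays 2 and 4 kept Kit at 6.81 and 6.67, and the myeloid factor gene Cebpa at 7.87 and 8.35, while the other 3 had Kit at 3.18 to 3.30. Hoxa5 in these 2 arrays was 3.24 and 2.91, Hoxa7 3.39 and 3.14, and Meis1 3.08 and 3.21, all below the median of all values. Hoxa9 was 3.87 and 3.94 there, the highest of the 5 GMP-labelled arrays (3.64 to 3.81 in the other 3) and just above that median, but below the healthy arrays. Megakaryocyte genes, which include a known site of Meis1 expression, had means over 6 genes of 5.22 to 5.99 in healthy GMP, 4.21 to 4.54 in LSK-labelled, 3.58 to 4.37 in GMP-labelled and 3.44 to 3.69 in DN2-labelled leukemia, and 3.80 to 3.87 in healthy DN2. Their part in the Meis1 values was not tested.

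Likeness between profiles was described by Pearson's r over the 17 arrays, which share groups and the contrast of healthy with leukemic cells. Hoxa9 ran with Hoxa7 (0.84), Meis1 (0.83) and Hoxa5 (0.82) but not with Pbx2 (0.02) or Pbx3 (-0.04). The 3 tested genes most like Hoxa9 were Cyp2j6 (0.95), Car3 (0.95) and Gstt3 (0.93). Those most like Meis1 were Adgrl2 (0.94), Amot (0.92) and Npl (0.91), and those most like Pbx3 were Ccr2 (0.88), Cx3cr1 (0.87) and Elmo2 (0.87), of which Ccr2 and Cx3cr1 are chemokine receptor genes of monocytes.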

How the data were processed

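RNA from 17 arrays (3, 5 and 5 leukemia arrays of LSK, DN2 and GMP origin, 2 and 2 of healthy DN2 and GMP) was labelled from 300 ng per array, per the labels. The deposited values are log2 summaries per probe set made by the authors with RMA and affy, per the submitters' processing notes, with versions, parameters and joint normalization not given in the sources used here. Of 45141 probe sets, 104 controls were left out and 28898 had 1 gene symbol in the platform annotation, 28689 of which matched RefSeq (GRCm38.p6) by Entrez identifier. Genes were represented by the probe set of highest mean and tested where the highest group mean exceeded 3.83. All arrays entered 1 limma 3.58.1 fit (R 4.3.3) with a mean per group, two-sided, with Benjamini-Hochberg adjustment over 11625 genes and a threshold of 0.05. The procedure was tested on simulated data, with 100 genes changed at each size. Far fewer genes were called there than in the data, with 116 against 2695 for DN2. The adjustment was thus stricter there, and the shares recovered may understate those in the data. Changes of 1 log2 unit were recovered in 34% of cases for DN2, 38% for GMP, 28% between healthy groups and 21% for the interaction. For changes of 2 log2 units these were 78%, 74%, 69% and 57%. A comparison that did not pass can therefore still hold a change of such size. Whether replicate numbers pair the samples is not on the labels, so no pairing entered the main fit. In each list, up to 4 genes per comparison were named, called ones first, then by size of difference. A gene named for a single comparison can therefore differ in others as well. Hoxb4, Men1, Kit and Cebpa values per array were picked after they were seen. The members and lists were chosen with earlier results of these data known. Alternatives changed normalization, filter, probe set, samples in the fit, variance model, array weights and replicate block, and left out arrays.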

Additional observations from a re-analysis of the deposited data

Results flagged for a closer look

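Meis1 differed between the origins in its change from healthy to leukemic cells, by 1.78 ± 0.32 on the log2 scale (SE, interaction for DN2 minus GMP, limma, adjusted p = 0.00194). The leukemia values were at background in both, and the healthy values differed. Pbx2 differed in the same test by -1.34 ± 0.41 (SE, adjusted p = 0.0463), with a fall in DN2-labelled leukemia and no call in GMP-labelled leukemia. GMP-labelled array 5 stood apart from the other 4 for Hoxa3, at 3.42 against 3.57 for the nearest, with a gap of 0.726 of the group's range. All 5 values are below the median of the array, and chance flags about 1 in 20 such groups.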

How the results depend on the processing

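The count of members separated between healthy and leukemia arrays was 3 to 4 over 24 alternatives, which were chosen after seeing the data, and 4 with the probe set of largest variance or without healthy DN2 array 1, the LSK-labelled arrays or the DN2-labelled leukemia arrays. Leaving out arrays cannot lower this count. Of the member differences with a group above background, 520 kept direction and side of the threshold, 22 lost and 22 gained the call, and 7 reversed. The reversed ones, none of them called, were Pbx2 between healthy groups (-0.15 with the probe set of largest variance, -0.011 without healthy GMP array 1, with a range of -0.011 to 0.13 over single arrays left out), Pbx2 in LSK-labelled against GMP-labelled leukemia without LSK-labelled arrays 2 and 3 (-0.19), and Pbx3 in DN2-labelled against GMP-labelled leukemia (-0.0017 with array weights, -0.13 to 0.21 over single arrays left out, below 0 without DN2-labelled array 1 or 3, and -0.33 without both).

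Members called between healthy groups were 2 after quantile normalization, 3 with only those groups fitted, 2 with a variance trend and 4 with array weights, in place of 1. In the interaction 2 members became 1 with no filter, the probe set of largest variance, a variance trend, the replicate block or without DN2-labelled arrays 1 and 3, and 4 with array weights. The block changed no other member count. LSK-labelled against GMP-labelled leukemia had 3 members called with array weights, in place of 1.

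Genes called rose with array weights from 2695 to 5885 (DN2), 2463 to 6054 (GMP), 1300 to 5439 (healthy) and 1473 to 5243 (interaction). With only the groups compared, healthy cells gave 5326 and LSK-labelled against GMP-labelled leukemia 1659 in place of 3108. Without LSK-labelled arrays 2 and 3 that comparison gave 1374, and against DN2-labelled leukemia 3172 in place of 5514. The cause was not tested.

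Leaving out each array in turn gave 1236 to 2676 genes and 3 to 5 members (DN2), 848 to 3342 and 4 (GMP), 602 to 785 and 1 to 2 (healthy), 782 to 1749 and 1 to 2 (interaction), and 1889 to 3716 and 1 to 3 (LSK-labelled against GMP-labelled leukemia). It gave 4149 to 4622 and 1 for DN2-labelled against GMP-labelled, and 4576 to 5614 and 2 to 3 for LSK-labelled against DN2-labelled leukemia. Signal near background limits Hoxa3, Hoxa10 and all Hoxa values in leukemia.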
